A study of Mus musculus with 6 samples.

Results

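Pericytes were compared between mice that recalled a contextual fear memory and mice that had the same training but no recall. Cells of the amygdala had been sorted with an antibody to the astrocyte surface protein ACSA2, and every pool also held pericytes, although the labels name astrocytes as the cell type. A cell barcode was taken as a pericyte when it had at least 500 genes, under 6% mitochondrial UMIs (unique molecular identifiers, which count RNA molecules), at least 10 UMIs of the pericyte genes *Vtn* and *Rgs5* together, at most 5 of the astrocyte glutamate transporters *Slc1a2* and *Slc1a3* together, under 5 of smooth muscle *Acta2* and under 3 of fibroblast *Dcn*. Its mouse was read from the hashtag, an antibody-borne oligonucleotide given to the cells of each mouse, where the strongest hashtag had at least 10 UMIs and at least 3 times the next. Of 13546 barcodes in 3 libraries, 2188 met the gene rule. The hashtag call failed in 677 of these and gave a hashtag with no listed mouse in 521, which left 990 pericytes in 16 mice and 412 in the mice compared here.

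Fear recall (FR) mice had been fear conditioned with foot shocks and returned to the conditioning chamber the day after. NoFR mice had been conditioned and then stayed in the home cage without recall. All were young adult male wild-type C57BL/6N mice, and killing is described as 90 min after the behaviour began. NoFR mice had no session in the chamber that day, and the paper places them the day after conditioning, without recall. From what point their 90 min were counted is not stated. Mice were perfused with buffered saline. The tissue was dissociated with transcription and translation blockers (actinomycin D, triptolide and anisomycin) in the solutions. The non-shocked (NoFC) and newly conditioned (FC) mice of the same series entered the same fit. They were not compared with other groups, and their levels are given beside the called genes as values only. There were 190 pericytes in 4 FR mice, with 36, 45, 56 and 53 cells in mouse 1 to 4, and 222 in 4 NoFR mice, with 55, 38, 81 and 48 cells. FR mice 1 and 2 and NoFR mice 1 and 2 were pooled in library 1, FR mouse 3 came from library 2, which had no NoFR mouse, and FR mouse 4 shared library 3 with NoFR mice 3 and 4.

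Pericytes sit in the basement membrane of capillaries, where they touch the endothelium and help to set capillary tone and the blood-brain barrier. Like most cells they run a molecular clock, in which BMAL1 and CLOCK drive the *Per*, *Cry* and *Nr1d* genes that in turn repress them, and the PAR bZIP factors DBP, TEF and HLF carry the rhythm to output genes. Glucocorticoids, which rise with arousal and with the daily cycle, act through the receptor *Nr3c1* on genes such as *Fkbp5*, *Zbtb16* and *Klf9*, and they also reset clocks of peripheral tissues. The behaviour was run in the light phase, and no source used here gives the clock hour at which each mouse was taken. Recall, exposure to the chamber, handling and that hour cannot be told apart in this comparison.

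Of 6337 genes tested, 11 (0.174%) differed between FR and NoFR pericytes at an adjusted p under 0.05, which is what called means below. The test was edgeR's quasi-likelihood test on UMI counts summed per mouse, in a model that also had a term for the library, and p-values were adjusted by Benjamini-Hochberg over the whole table. The 9 genes higher in FR (0.142% of those tested) were *Zbtb16*, *Dbp*, *Klf9*, *Pde10a*, *Lpin1*, *Pdxk*, *Nr1d1*, *Per2* and *Hlf*. The 2 genes lower in FR (0.0316%) were *Asap2* and *Rasl11a*. Without adjustment, 215 genes had p under 0.05 and were higher in FR (3.39%) and 192 were lower (3.03%). The summed UMIs ranged from 187654 to 425182 per mouse.

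**Figure D1:**
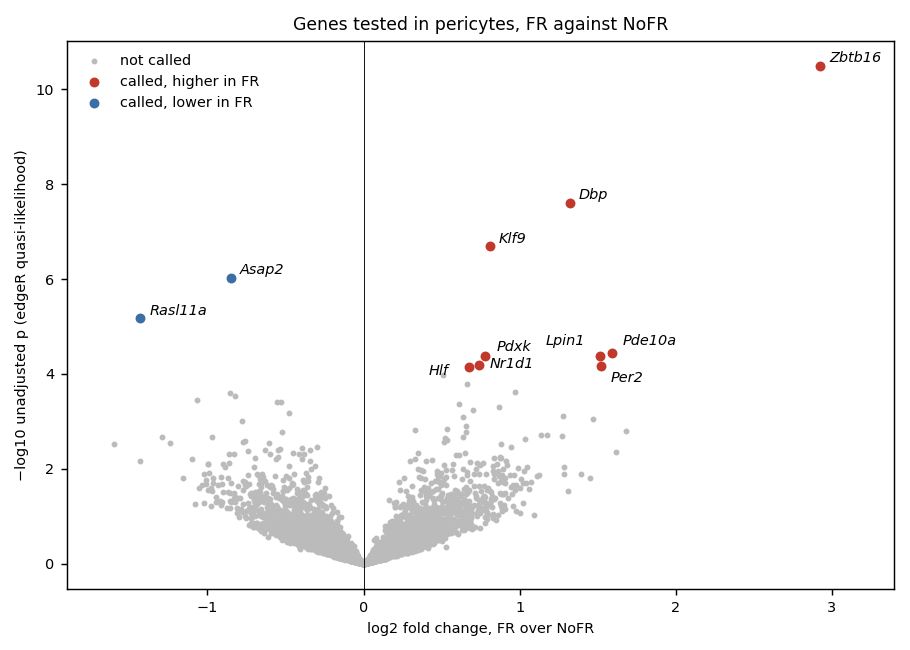
Each point is 1 of 6337 genes tested in pericytes, with the log2 fold change of FR over NoFR on the horizontal axis and −log10 of the unadjusted p of edgeR's quasi-likelihood test on the vertical axis. The 9 genes called higher in FR are red, with *Zbtb16* farthest right, and the 2 called lower are blue.

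Levels below are CPM, UMI counts relative to the library total scaled by the trimmed mean of M-values, given for mouse 1 to 4 of each group. *Zbtb16* (ENSMUSG00000066687, chromosome 9, GRCm38, 48654297 to 48836222, reverse strand) encodes the zinc finger repressor PLZF and is a known glucocorticoid receptor target. Its level was 12.1, 11.3, 12.6 and 12.5 CPM in NoFR mice and 62.4, 104, 72.1 and 103 CPM in FR mice. Every FR mouse was therefore above every NoFR mouse. The NoFR values lay close together but came from only 3, 2, 5 and 3 UMIs, too few to measure the spread between these mice. The fitted difference was 2.92 ± 0.37 (log2, SE), a 7.58-fold higher level in FR, with an adjusted p of 2e-07 (edgeR). It rested on 82 UMIs in FR and 13 in NoFR pericytes, and no cell held more than 4.21% of them. The NoFC mice lay between 80.2 and 193 CPM and the FC mice between 118 and 195 CPM, so that the NoFR mice were low against each other group.

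*Klf9* (ENSMUSG00000033863, chromosome 19, 23141226 to 23168134, forward strand), a Krüppel-like factor induced by glucocorticoids and by the clock, was at 327, 362, 319 and 275 CPM in NoFR mice and at 494, 546, 516 and 573 CPM in FR mice. The groups did not overlap, and the spread within each was small against the gap. The difference was 0.81 ± 0.14 (log2, SE), with an adjusted p of 4.29e-04 (edgeR). NoFC mice ranged from 499 to 789.8 CPM and FC mice from 451 to 582 CPM.

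*Dbp* (ENSMUSG00000059824, chromosome 7, 45705088 to 45710203, forward strand), whose product is a clock output activator, was the clock gene with the smallest p. NoFR mice had 84.7, 62.3, 90.4 and 159 CPM, and FR mice had 380.2, 271, 180.3 and 188 CPM. The groups came nearest between NoFR mouse 4 of library 3, the highest of its group, and FR mouse 3 of library 2, the lowest of its group. The fitted difference was 1.32 ± 0.21 (log2, SE), 2.50-fold, with an adjusted p of 7.88e-05 (edgeR). In library 1 alone the means were 325 CPM in FR and 73.5 CPM in NoFR mice. The NoFC mice lay from 369.5 to 472 CPM and the FC mice from 270.4 to 319.7 CPM.

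*Hlf* (ENSMUSG00000003949, chromosome 11, 90336536 to 90390895, reverse strand), the PAR bZIP relative of *Dbp*, had 206, 169.8, 274 and 271 CPM in NoFR and 295, 469.9, 368 and 356 CPM in FR mice. The lowest FR mouse was close to the highest NoFR mice, and the difference was 0.67 ± 0.16 (log2, SE; adjusted p = 0.0421, edgeR). *Nr1d1* (ENSMUSG00000020889, chromosome 11, 98767932 to 98775333, reverse strand), the haem-sensing repressor REV-ERBα, had 101, 181, 198 and 163 CPM in NoFR and 204, 309, 252 and 288 CPM in FR mice. Its groups likewise stood next to each other without overlap, with a difference of 0.74 ± 0.17 (log2, SE; adjusted p = 0.0421, edgeR). It overlaps *Thra* on the other strand, as *Dbp* overlaps *Sphk2*.

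*Per2* (ENSMUSG00000055866, chromosome 1, 91415982 to 91459324, reverse strand), a core repressor of the clock that also carries glucocorticoid response elements, was at 12.1, 28.3, 22.6 and 25.0 CPM in NoFR and 39.7, 94.9, 82.9 and 46.2 CPM in FR mice. With only 23 UMIs in NoFR and 63 in FR pericytes it was among the sparsest called genes, and FR mice 1 and 4 were well below FR mice 2 and 3. The difference was 1.52 ± 0.36 (log2, SE; adjusted p = 0.0421, edgeR).

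**Figure D2:**
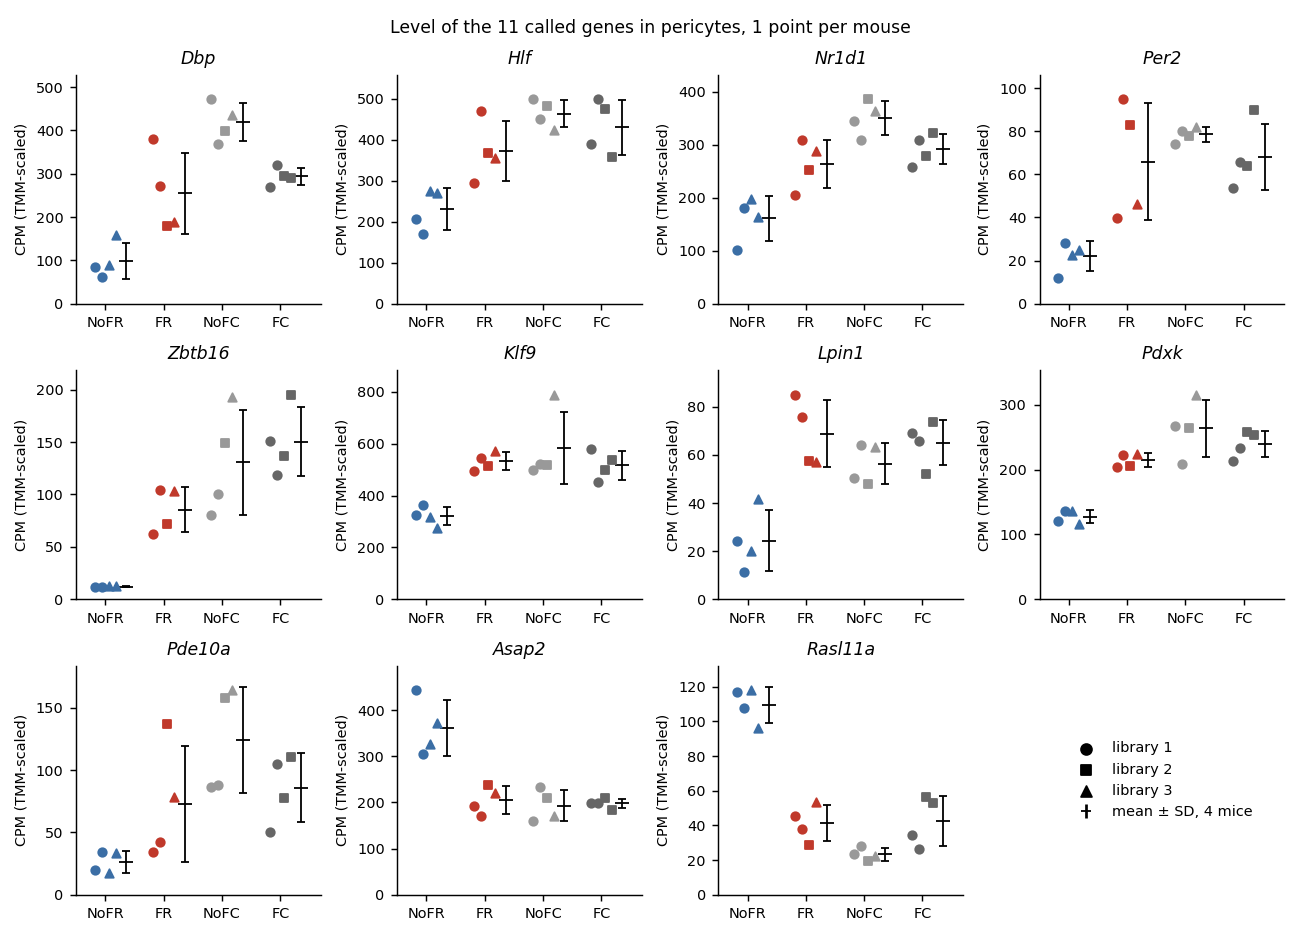
Level of each of the 11 called genes in the pericytes of 16 mice, in TMM-scaled CPM from 0 on the vertical axis, with 1 point per mouse, the marker shape for the library, and bars for the mean ± SD of 4 mice. In each panel the NoFR mice do not overlap the FR mice, nor the NoFC and FC mice drawn in grey.

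Of 22 clock genes listed, 15 had enough UMIs to be tested. The called ones were the 4 above, where 11 of 6337 (0.174%) were called over all genes tested. The gene lists were chosen with earlier results of these data known, so counts by list are a description. The median log2 fold change of the 15 was 0.60, with 13 above 0 and 2 below, against −0.01 over all genes tested. Unadjusted p was under 0.05 in 7 of the 15, each higher in FR, as in 3.39% of all genes tested. Beside the called genes these were *Nr1d2*, *Tef* and *Bhlhe40*, none of which passed the adjustment. *Nr1d2*, the partner of *Nr1d1*, had a mean of 126 ± 14.5 CPM (SD, n = 4) in NoFR and 194 ± 39.1 CPM in FR mice, with FR mouse 4 at 139 CPM inside the NoFR range. *Tef* was at 64.0 ± 22.4 CPM in NoFR and 103 ± 28.9 CPM in FR mice, with overlap. *Bhlhe40*, a repressor of the same E-box sites, was at 9.71 ± 7.04 CPM in NoFR and 32.0 ± 22.3 CPM in FR mice, with the group ranges overlapping.

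*Per3*, *Cry2* and *Per1*, repressors like *Per2*, had log2 differences of 0.69, 0.60 and 0.53, with overlap between the groups and none past the test. The only tested clock genes below 0 were *Clock* and *Csnk1d*. *Clock* had 173 ± 43.9 CPM (SD, n = 4) in NoFR and 146 ± 45.6 CPM in FR mice, with a log2 difference of −0.26 ± 0.20 (SE). *Rora*, an activator of *Arntl* and the clock-list gene with the highest level here, had 1297 ± 251 CPM and 1398 ± 203 CPM, with a log2 difference of 0.09 ± 0.11 (SE). *Csnk1d*, a kinase that marks PER proteins for breakdown, had 76.8 ± 13.1 CPM in NoFR and 52.3 ± 16.6 CPM in FR mice. *Clock*, *Rora* and *Csnk1d* did not pass the test, and their groups overlapped.

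The clock activators *Arntl* and *Npas2* were too sparse for the filter on low counts, and their values were lower in FR. These values come from the planned setting without that filter, in which 12205 genes were tested, and both genes were chosen after their values were seen. *Arntl*, which encodes BMAL1, had 26.6, 83.8, 49.7 and 60.7 CPM in NoFR and 10.5, 26.3, 30.3 and 26.4 CPM in FR mice, from 60 and 25 UMIs. NoFR mouse 1 lay inside the FR range, and the log2 difference was −1.21 ± 0.42 (SE), with an unadjusted p of 0.00428 and an adjusted p of 0.497 (edgeR). *Npas2*, a relative of *Clock*, had 41.8, 41.9, 16.6 and 19.0 CPM in NoFR and 5.26, 4.38, 6.73 and 16.5 CPM in FR mice, from 31 and 9 UMIs. Its groups touched without overlap, and the log2 difference was −1.79 ± 0.63 (SE), with an unadjusted p of 0.00457 and an adjusted p of 0.514 (edgeR). Neither passed the adjustment. Of the 7 listed clock genes left untested, 5 had a value in that setting, the others being *Cry1*, *Ciart* and *Bhlhe41*. *Cry1*, a repressor like *Per2*, was near level at −0.10 ± 0.55 (log2, SE), from 18 UMIs in NoFR and 17 in FR. *Ciart* was at 0.68 ± 0.93 from 4 and 6 UMIs, and *Bhlhe41* at 1.66 ± 1.09 from 2 and 7. These did not pass the adjustment either. The NoFC and FC mice had at most 11.1 CPM of *Arntl* and at most 11.3 CPM of *Npas2*.

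Short stretches of genome before the transcription start are shown for the called genes in which a motif bound by clock or cAMP-responsive factors was found, so that the letters can be read beside the values. RefSeq promoter windows (GRCm38.p6) were at hand for 8 of the 11 called genes, with none for *Asap2*, *Per2* and *Zbtb16*. The 250 bases before each start were searched on both strands for the E-box CACGTG, the related CACGTT, the D-box TTATGTAA, the cAMP response element TGACGTCA and ACANNNTGT, the core of glucocorticoid response elements. The *Pdxk* stretch covers chr10:78465089-78465168, that of *Nr1d1* chr11:98775378-98775457 and that of *Hlf* chr11:90390918-90390997, each on the reverse strand and read 5′ to 3′. Capitals mark the match, which in *Nr1d1* is CACGTT read on the opposite strand.
Pdxk: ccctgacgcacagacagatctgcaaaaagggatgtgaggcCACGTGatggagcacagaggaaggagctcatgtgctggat
Nr1d1: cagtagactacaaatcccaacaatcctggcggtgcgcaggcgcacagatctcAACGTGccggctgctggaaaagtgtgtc
Hlf: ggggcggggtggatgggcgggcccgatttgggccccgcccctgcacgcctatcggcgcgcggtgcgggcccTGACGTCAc
The matches began 180, 28 and 9 bases before the RefSeq start in that order. The gene positions printed with the levels come from GENCODE, whose starts for these genes differ from the RefSeq ones. The *Pde10a* window held ACANNNTGT, and those of *Dbp*, *Klf9*, *Lpin1* and *Rasl11a* held none of these motifs. Over all 32851 windows, CACGTG was found in 6.02%, CACGTT in 3.85%, TTATGTAA in 0.819%, TGACGTCA in 1.55% and ACANNNTGT in 5.84%. These matches are descriptions of the letters and no test of binding was made.

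Of 24 listed glucocorticoid targets and partners, 14 were tested and 2 were called, *Zbtb16* and *Klf9*, both higher in FR. Over all genes tested, 0.174% were called. As with the clock list, these counts are a description. The median log2 fold change of the 14 was 0.30, with 11 above 0 and 3 below. Over all genes tested it was −0.01, with 3122 above 0 and 3215 below. *Fkbp5*, the receptor's co-chaperone and a standard marker of its activity, had 4.03, 28.3, 5.02 and 16.7 CPM in NoFR mice and 22.7, 33.2, 18.0 and 49.8 CPM in FR mice. The groups overlapped, and the difference of 1.62 ± 0.55 (log2, SE) had an unadjusted p of 0.00437 and an adjusted p of 0.475 (edgeR). The receptor *Nr3c1* itself, among the 3 below 0, was at 228 ± 29.7 CPM (SD, n = 4) in NoFR and 205 ± 35.4 CPM in FR mice. It did not pass the test. *Per1*, *Tsc22d3*, *Mt1* and *Cebpd* also did not pass, with log2 differences between 0.10 and 0.53.

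The remaining called genes that were higher in FR act in metabolism and cyclic nucleotide handling. *Lpin1* (ENSMUSG00000020593, chromosome 12, 16535669 to 16610966, reverse strand), a phosphatidate phosphatase and transcriptional coactivator, had 24.2, 11.3, 20.1 and 41.7 CPM in NoFR and 85.1, 76.0, 57.7 and 56.9 CPM in FR mice. All FR mice were above all NoFR mice, and the log2 difference was 1.51 ± 0.35 (SE; adjusted p = 0.0339, edgeR). *Pdxk* (ENSMUSG00000032788, chromosome 10, 78436744 to 78464975, reverse strand), the kinase that makes the active form of vitamin B6, had 121, 136, 136 and 117 CPM in NoFR and 204, 223, 206 and 224 CPM in FR mice. Its 2 groups were each tight, and the log2 difference was 0.78 ± 0.18 (SE; adjusted p = 0.0339, edgeR).

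*Pde10a* (ENSMUSG00000023868, chromosome 17, 8525372 to 8986648, forward strand), a phosphodiesterase that breaks down cAMP and cGMP, had 20.2, 34.0, 17.6 and 33.4 CPM in NoFR and 34.0, 42.7, 137 and 78.2 CPM in FR mice. FR mouse 1 was barely above NoFR mouse 2, and FR mouse 3 was far above the rest. A single cell of FR mouse 3 held 24 of its UMIs, 23.8% of those in all 8 mice, where the next cell had 6. The log2 difference was 1.59 ± 0.36 (SE; adjusted p = 0.0339, edgeR). Without that cell, a setting chosen after seeing the data, it was 1.20 ± 0.37 with an adjusted p of 0.320. It was the only called gene among 23 tested in the list of cAMP and cGMP handling, whose median log2 fold change was −0.04.

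In both genes called lower in FR, the NoFR mice stood above every mouse of the other groups. *Asap2* (ENSMUSG00000052632, chromosome 12, 20990459 to 21270171, forward strand), which activates the GTPase of ARF proteins in membrane traffic, had 443, 306, 327 and 371 CPM in NoFR and 193, 171, 238 and 221 CPM in FR mice. The log2 difference was −0.85 ± 0.16 (SE; adjusted p = 0.00148, edgeR). NoFC mice ranged from 160.4 to 233 CPM and FC mice from 185 to 210.2 CPM. *Rasl11a* (ENSMUSG00000029641, chromosome 5, 146845071 to 146847726, forward strand), a small GTPase-like protein of the nucleolus, had 117, 108, 118 and 96.0 CPM in NoFR and 45.4, 38.0, 28.9 and 53.3 CPM in FR mice. The NoFC mice were at 19.5 to 28.1 CPM and the FC mice at 26.3 to 56.7 CPM. FR and NoFR mice were far apart, with a log2 difference of −1.43 ± 0.29 (SE; adjusted p = 0.00856, edgeR).

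All 11 called genes had no overlap between the 4 FR and 4 NoFR mice. Over all genes tested, 121 (1.91%) had every FR mouse above every NoFR mouse and 96 (1.51%) had every FR mouse below. Within library 1 the pair of FR mice did not overlap the pair of NoFR mice in 11 of 11 called genes, and in library 3 the FR mouse lay beyond both NoFR mice in 11 of 11. Both library counts follow from the lack of overlap between all FR and all NoFR mice, so they add no evidence from separate libraries. These mice also chose the genes, so the counts are a description. In each of the 11 genes the NoFC and FC mice lay on the FR side of the NoFR range. The share of all genes tested with this pattern was not counted, and the 11 were chosen for a difference of NoFR from FR mice. The pattern is therefore a description. Those comparisons would share the NoFR mice with this one and were not tested here.

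The calls differed in how often they held when 1 mouse was left out. *Zbtb16*, *Dbp* and *Klf9* were called in each of the 8 fits that left out 1 mouse, with adjusted p of at most 0.00751. *Asap2* was called in 7 of 8, with an adjusted p of 0.127 without NoFR mouse 1, and *Rasl11a* in 6 of 8. *Pde10a* was called in 4, *Hlf* and *Nr1d1* in 3, *Per2* and *Lpin1* in 2 and *Pdxk* in 1 of the 8 fits, while their direction did not change. The log2 fold changes ranged from 0.72 to 0.84 for *Pdxk*, 0.54 to 0.77 for *Hlf* and 0.57 to 0.86 for *Nr1d1*. The ranges were 1.29 to 1.82 for *Per2*, 1.33 to 1.83 for *Lpin1* and 1.25 to 1.81 for *Pde10a*. How far each difference rested on 1 mouse was not tested further. Over these fits the number of genes called ranged from 4, without NoFR mouse 1, to 11. The 4 genes that DESeq2 called were *Zbtb16*, *Dbp*, *Klf9* and *Asap2*.

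Pericytes of the same mice with weaker hashtags gave a further reading from other cells. These 60 FR and 47 NoFR pericytes passed a hashtag call at 5 UMIs and 2 times the next but not the call used above, and they were chosen as a check after seeing the data. They came from the mice that chose the genes, so any difference between those mice would recur in them. They are therefore not independent of the calls above. Their log2 fold changes were 1.80 for *Zbtb16*, 1.31 for *Dbp*, 0.72 for *Klf9*, 1.96 for *Per2*, 0.84 for *Hlf* and 0.60 for *Nr1d1*. *Rasl11a* was at −0.90, *Lpin1* at 0.71 and *Pdxk* at 0.22. *Asap2* was near 0 at −0.04, and *Pde10a* was at −0.70, against its direction above. None of the 11 was called in these cells, with unadjusted p of 0.00102 for *Dbp*, 0.00179 for *Zbtb16*, 0.00556 for *Hlf* and 0.00689 for *Klf9* (edgeR).

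**Figure D3:**
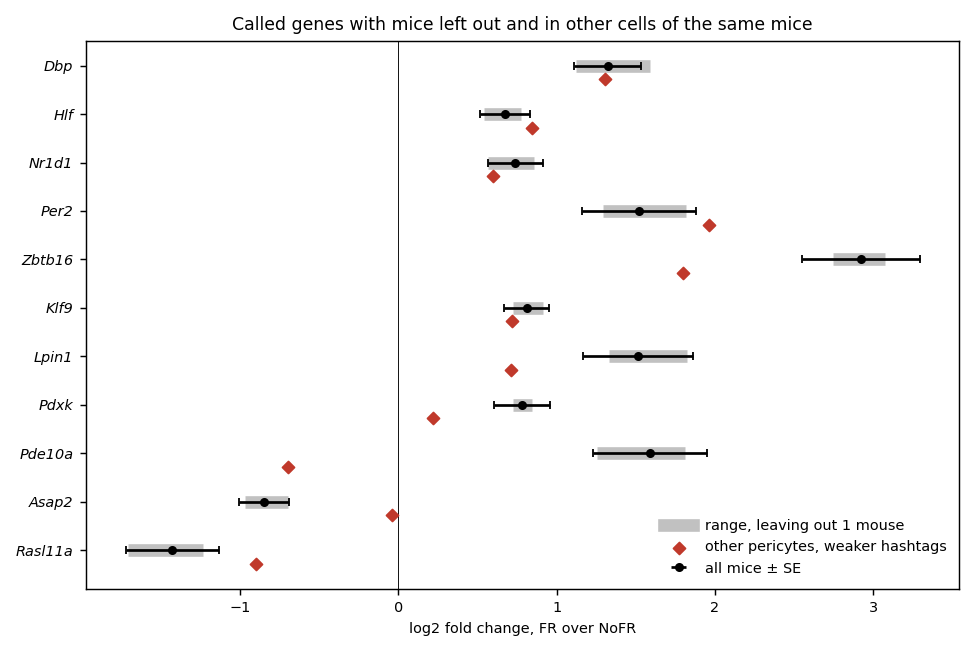
Log2 fold change of FR over NoFR for the 11 called genes. Black points with bars are the fit on all mice ± SE, grey bars the range over 8 fits that leave out 1 mouse, and red diamonds the other pericytes of the same mice with weaker hashtags, in which *Asap2* lies near 0 and *Pde10a* on the other side of 0.

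The genes next in order of p did not pass the adjustment. Nearest to the threshold was *Eps8*, an actin-capping signalling adaptor, at 508 ± 95.0 CPM (SD, n = 4) in NoFR and 730.5 ± 30.1 CPM in FR mice (adjusted p = 0.0563, edgeR). With lower values in FR came *Sh3glb1*, *Ackr3*, *Samd4*, *Gm13889*, *Sntb1*, *Pcdh18*, *Nts* and *Stk39*, with log2 differences from −1.06 to −0.48 and adjusted p from 0.109 to 0.322 (edgeR). *Ackr3*, a scavenger receptor for the chemokine CXCL12, had 169.9 ± 41.6 CPM in NoFR and 96.2 ± 17.8 CPM in FR mice. *Nts*, the neuropeptide neurotensin, had 361 ± 134 CPM and 243 ± 58.9 CPM, with NoFR mouse 4 inside the FR range. Of these 8 genes with lower values, *Sh3glb1* and *Pcdh18* were without overlap between the groups, as was *Eps8*, and the others overlapped.

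Genes of pericyte identity were level between the groups. All 20 listed markers were tested, with a median log2 fold change of 0.00, 0 called and 1 with an unadjusted p under 0.05, the adhesion molecule *Mcam*. *Vtn* and *Rgs5*, which the rule used, had log2 differences of −0.06 ± 0.08 and −0.05 ± 0.08 (SE). *Pdgfrb*, the receptor through which endothelial PDGF-B recruits pericytes, had 2123 ± 182 CPM (SD, n = 4) in NoFR and 1895 ± 42.6 CPM in FR mice, with every FR mouse below every NoFR mouse but a log2 difference of −0.16 ± 0.10 (SE) that did not pass the test. The subunits of the pericyte ATP-sensitive potassium channel, *Kcnj8* and *Abcc9*, had differences of 0.12 ± 0.12 and 0.20 ± 0.11 (log2, SE).

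Further lists held no called gene. Over all genes tested, 3122 had a log2 fold change above 0 and 3215 below. Of all these genes, 3.39% had an unadjusted p under 0.05 and were higher in FR, and 3.03% had such a p and were lower. Heat shock and protein folding had 21 tested genes with a median log2 fold change of 0.18, of which 5 had an unadjusted p under 0.05, each higher in FR. Its smallest p belonged to the chaperone *Hsph1*, at 26.7 ± 1.84 CPM (SD, n = 4) in NoFR and 49.0 ± 9.22 CPM in FR mice, and to *Xbp1*, a factor of the unfolded protein response, at 143 ± 15.3 CPM and 194 ± 17.6 CPM. Both had no overlap between the mice, with adjusted p of 0.649 and 0.663 (edgeR). In cholesterol synthesis and uptake, 9 of 11 tested genes were below 0 and the median was −0.27. *Cyp51*, the lanosterol demethylase, had 48.4, 34.0, 22.6 and 37.6 CPM in NoFR and 5.67, 9.49, 21.6 and 7.11 CPM in FR mice, and *Hmgcs1*, which makes the first committed intermediate, had 52.4 ± 16.8 CPM and 19.8 ± 8.20 CPM. Neither passed, with adjusted p of 0.390 and 0.714 (edgeR).

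Immediate early genes, which many cells switch on within minutes of a stimulus, were sparse in these pericytes. Of 31 listed, 9 were tested, 0 were called, and the median log2 fold change was −0.17. *Ier3* had 82.1 ± 35.5 CPM (SD, n = 4) in NoFR and 140.2 ± 27.7 CPM in FR mice, and *Btg2* had 185 ± 29.4 CPM and 128 ± 18.5 CPM. Neither passed, with adjusted p of 0.148 and 0.509 (edgeR). *Fos*, the gene the study followed in astrocytes, had 1 UMI in NoFR and 0 in FR pericytes, too few to test. *Fosb*, *Arc*, *Npas4*, *Egr2* and *Nr4a2* had no UMI in the 412 cells, which allows up to 0.728% of cells with a UMI for each. This limit takes the cells of both groups together as independent and leaves out the spread between mice.

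Of the adrenoreceptors that the study followed, *Adra1a* had 13.5 ± 10.5 CPM (SD, n = 4) in NoFR and 21.2 ± 22.3 CPM in FR pericytes, with a log2 difference of 0.53 ± 0.69 (SE) that did not pass the test, and *Adrb1* had no UMI. *Igfbp2* had 2 UMIs in all. Among receptors for vasoactive ligands 11 of 37 listed genes were tested and 0 called. The smallest p there was that of *P2ry14*, a receptor for UDP-sugars, at 904 ± 67.5 CPM in NoFR and 1103 ± 59.5 CPM in FR mice, without overlap but with an adjusted p of 0.526 (edgeR).

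Lists of collagens and basement membrane, contractile genes, Notch, TGF-beta and BMP, PDGF and VEGF signalling, calcium handling, potassium channels, RGS regulators, transporters, glycolysis, interferon, mural transcription factors and growth factors also had 0 called genes. Their median log2 fold changes lay between −0.08 and 0.13. In these lists *Notch1* had 565 ± 33.8 CPM (SD, n = 4) in NoFR and 463 ± 44.3 CPM in FR mice without overlap, and the insulin receptor *Insr* had 125 ± 27.9 CPM and 190.3 ± 35.4 CPM, also without overlap, with adjusted p of 0.743 and 0.546 (edgeR).

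**Figure D4:**
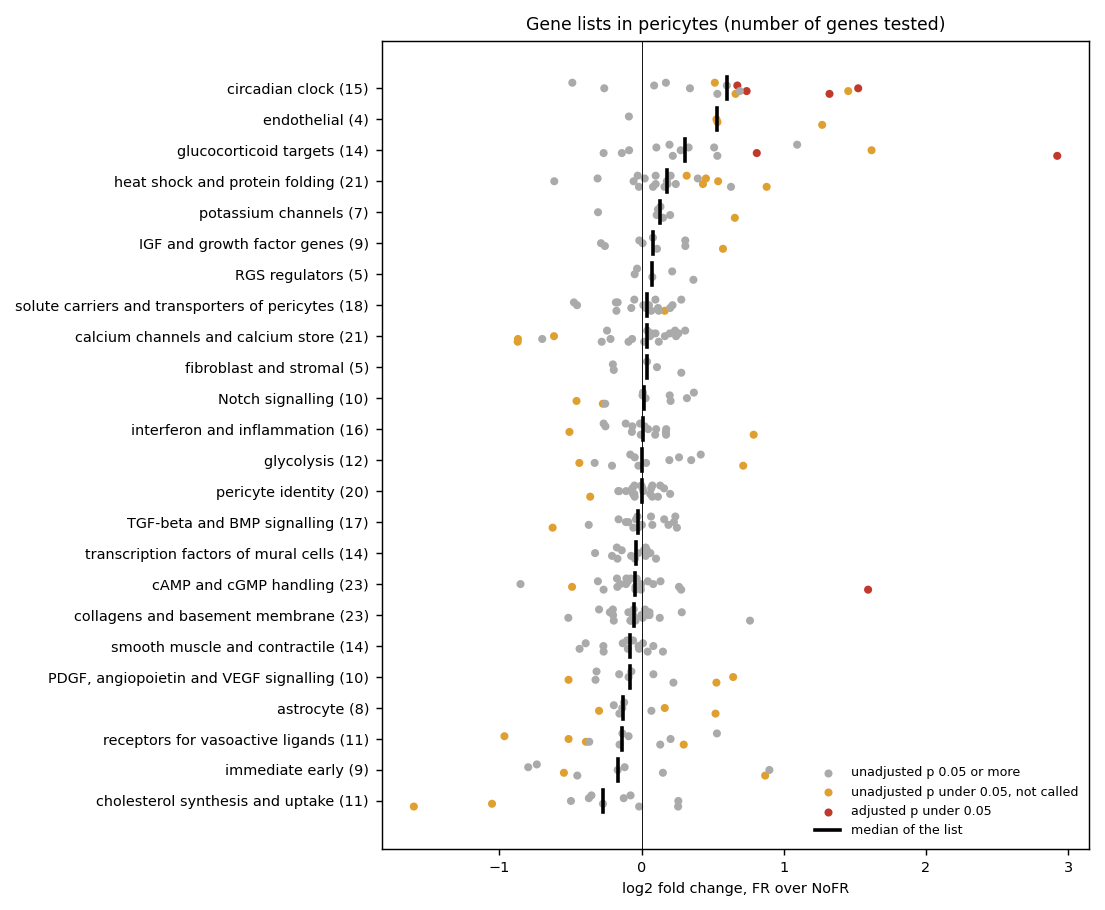
Log2 fold change of FR over NoFR of each tested gene, by list, for lists with at least 4 tested genes, whose number is in brackets. Black bars are list medians, from 0.60 for the circadian clock to −0.27 for cholesterol synthesis and uptake, and red points are the called genes, which lie in the clock, glucocorticoid and cAMP lists.

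Markers of other cell types were measured in the same sums. The endothelial list, 14 genes all with at least 1 UMI, summed to between 735 and 857 CPM in NoFR and between 731 and 1847 CPM in FR mice, and FR mouse 4 was the high one. A single barcode held 332 of the 552 endothelial UMIs of this mouse, with 12 UMIs of *Vtn* and *Rgs5*, while no other of the 412 pericytes had more than 14. *Slco1a4*, *Bsg* and *Flt1* of this list had an unadjusted p under 0.05, with log2 differences of 1.27, 0.53 and 0.53. Without that barcode, a setting chosen after seeing the data, they were −0.01, −0.03 and 0.29, and 12 genes were called, of which 11 were the ones above and the other was *Eps8*. No doublet caller was run.

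Of 16 listed astrocyte genes, 8 were tested and 0 called, with 3 above 0 and 5 below. Unadjusted p was under 0.05 in 2 higher and 1 lower in FR. Log2 differences were 0.52 ± 0.16 (SE) for *Plpp3*, with overlap, and −0.30 ± 0.10 for *Cst3*, without overlap. *Slc1a2* and *Slc1a3*, the defining members limited by the rule, had means of 96.4 and 132 CPM in NoFR and of 74.9 and 119 CPM in FR mice, with overlap. Neuron markers summed to 277 to 363 CPM in NoFR and 293 to 429 CPM in FR mice, nearly all of it *Meg3*, with *Snap25*, *Slc17a7*, *Gad1* and *Gad2* at 0. Microglia and blood markers stayed at or under 62.5 CPM and oligodendrocyte markers at or under 53.5 CPM, with *C1qa*, *C1qb*, *Tmem119*, *Mbp*, *Mog* and *Olig2* at 0. Smooth muscle and stromal sums overlapped between the groups, with *Actg2*, *Cnn1*, *Pdgfra*, *Lum* and *Col1a1* at 0. The part of these cells in the called differences was not tested beyond the settings given.

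**Figure D5:**
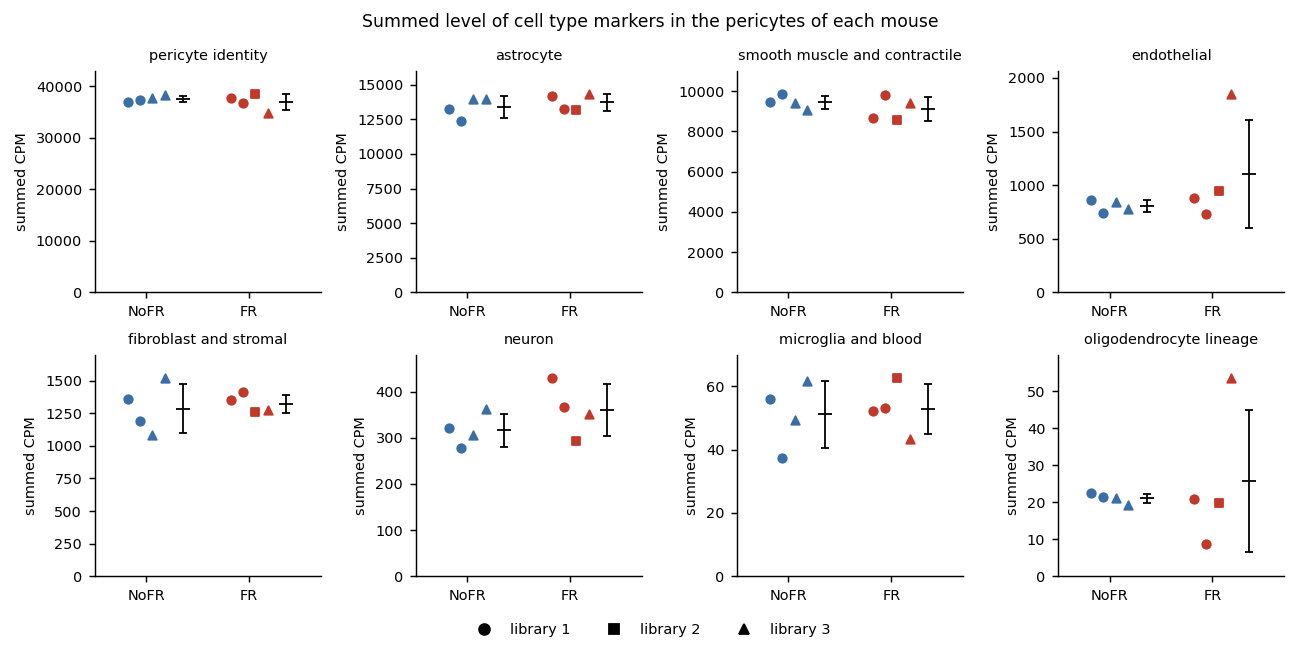
Summed CPM of 8 marker lists in the pericytes of each mouse, from 0 on each vertical axis, with the marker shape for the library and bars for the mean ± SD of 4 mice. The groups overlap in each panel, and FR mouse 4 stands above the rest in the endothelial panel at 1847 CPM.

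Differences in depth and in the share of pericytes were within the spread between mice. The median UMIs per pericyte were 4988 ± 213 (SD, n = 4) in NoFR and 5102 ± 232 in FR mice (2-sided exact permutation p = 0.514), and the median genes per pericyte were 2389 ± 100.3 and 2468 ± 65.8 (exact permutation p = 0.229). The mitochondrial share was 1.75 ± 0.0444% and 1.76 ± 0.0918% (exact permutation p = 0.914). Pericytes made up 78.0 ± 5.20% of hashtagged barcodes in NoFR and 74.5 ± 14.9% in FR mice (exact permutation p = 0.714), with FR mouse 3 lowest at 54.9%. The smallest p that 4 mice against 4 allow is 0.0286. The sort and the strength of hashtags set these shares, so they do not count pericytes in tissue. Of 18 barcode sequences shared between libraries, 1 belonged to a pericyte compared here.

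Whether the difference was particular to pericytes was tested against the few astrocytes with the same hashtag call. These were 3 to 42 per FR or NoFR mouse and 2 to 144 per NoFC or FC mouse. FR mouse 3, from library 2, held 42 of the FR astrocytes, and the other FR mice had 3 to 13. In edgeR's quasi-likelihood test of the interaction, 0 of 6499 genes were called and 158 had an unadjusted p under 0.05. *Dbp* was at 96.0 CPM in NoFR and 68.0 CPM in FR astrocytes, where pericytes had 102 and 259.8 CPM on the same scaling, an interaction of 1.81 ± 0.68 (log2, SE). *Zbtb16* was at 53.9 and 203 CPM in astrocytes and at 12.5 and 87.5 CPM in pericytes, an interaction of 1.20 ± 0.74. The looser hashtag call gave 11 to 286 astrocytes per FR or NoFR mouse and 11 to 493 per NoFC or FC mouse. With it, *Dbp* and *Zbtb16* were called, with interactions of 1.80 ± 0.34 and 2.06 ± 0.43 and adjusted p of 0.00119 and 0.0114 (edgeR). In that setting *Zbtb16* was at 83.9 CPM in NoFR and 144 CPM in FR astrocytes, so its group means were higher in FR in both cell types. The difference within astrocytes was not tested. FR mouse 3, from library 2, held 286 of the FR astrocytes there, and the other FR mice had 15 to 39. With the main hashtag call, the same as for the pericytes, and no filter on low counts, 0 of 14005 genes were called. Of these genes, 241 had an unadjusted p under 0.05 (edgeR).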

How the data were processed

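The authors deposited UMI counts of genes and of hashtags for every barcode of 3 pooled libraries, with a table that ties hashtags to mice. Reads had been aligned to mm10 (GENCODE vM23), with Cell Ranger 3.0 in the submitters' processing notes and 7.0.0 in the file headers. Counts of pericytes were summed per mouse. All 16 mice entered the fit, since library 2 has no NoFR mouse, with group and library as terms, TMM factors and filterByExpr in edgeR 4.0.16 (R 4.3.3), and 6337 genes were tested. DESeq2 1.42.0 was an alternative. The fits were tested on simulated data. Hashtags, filters and cells were varied as listed in the closing section. Positions are those of GENCODE vM21 (GRCm38), matched by identifier for 6334 of the genes tested. The members and gene lists were chosen with earlier results of these data known. Named genes were those called, those of smallest p up to 10 in each direction, those of the rule, those the study follows, and per list a pair of smallest p and a pair of highest level. Where further genes of a list are given, they were chosen after their values were seen. PCR and droplet losses are not covered by the limit for counts of 0, which covers counting error only. The level of 1 astrocyte-list gene, and the list's sum in words, are not reported here.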

Additional observations from a re-analysis of the deposited data

Results flagged for a closer look

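Of 220 groups of 4 mice examined, 13 had a mouse far from the other three by Dixon's criterion, where chance alone sets apart about 1 in 20. In NoFR mice these were *Sh3glb1* at 169 CPM and *Ifitm3* at 617 CPM in mouse 1, and *Cst3* at 2508 CPM and *Gapdh* at 453 CPM in mouse 2. In FR mice they were *Nr2f2* at 976 CPM in mouse 1, *P2ry14* at 1191 CPM and *Cald1* at 5364 CPM in mouse 2, *Gpi1* at 133 CPM and *Rgs5* at 6199.6 CPM in mouse 3, and *Gm13889* at 349 CPM, *Igf1r* at 292 CPM, *Sparcl1* at 2759.9 CPM and *Slco1a4* at 171 CPM in mouse 4. The value of *Slco1a4* moved with the barcode rich in endothelial UMIs described above. None of the 11 called genes was among them.

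A further 521 pericytes had a clear hashtag with no mouse listed for it in their library and entered no comparison. They fell into 12 combinations of library and hashtag of 13 to 76 cells each, where listed FR and NoFR mice had 36 to 81.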

How the results depend on the processing

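Against the 11 reported, the number of genes called was 4 with DESeq2, 22 with every gene of at least 10 UMIs tested, 4 with the 8 FR and NoFR mice alone, 7 in library 1 alone, 1 with a hashtag call of 20 UMIs and a 5-fold lead, 3 without barcodes holding an *Slc1a2* or *Slc1a3* UMI and 4 without those holding a *Cldn5*, *Pecam1* or *Flt1* UMI, where fewer cells were summed. Leaving out 1 mouse gave 4 to 11, with 4 without NoFR mouse 1, 5 without FR mouse 3, 6 without FR mouse 2 and 7 without NoFR mouse 3. Among settings chosen after seeing the data it was 5 without library 2, 1 in the pericytes with weaker hashtags (*Mgp*, outside the 11) and 6 without the cell richest in *Pde10a*. With upper-quartile factors, no library term, the looser hashtag call, at least 1000 genes or no endothelial-rich barcode it was 10 to 14. *Dbp* was called in 22 of 23 alternatives, *Zbtb16* in 21, *Klf9* in 19 and *Asap2* in 18. *Pde10a* changed sign in the pericytes with weaker hashtags, to −0.70 (log2). The cause of these changes was not tested. The interaction with astrocytes gave 2 calls with the looser hashtag call against 0. The difference in pericyte share, −3.50 percentage points, ranged from −7.52 to 3.02 points with 1 mouse left out and was 3.02 without FR mouse 3. Genes whose mice did not overlap numbered 220 with CPM from library totals against 217. No paired analysis was possible because mouse numbers mark no shared batch, and the libraries, which do, were a term of the fit.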
